A study of Mus musculus with 12 samples.

Results

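The genes described here encode the subunits of the transcription factor NF-κB and inhibitors that NF-κB itself induces. They were chosen by name as *Rela*, *Rel*, *Relb*, *Nfkb1*, *Nfkb2*, *Nfkbia*, *Nfkbid*, *Nfkbiz*, *Bcl3* and *Tnfaip3*, which makes 10 of the 24346 gene symbols with a value in every library. Group 2 innate lymphoid cells (ILC2s) were sorted from mouse lung, and their RNA gave 12 sequenced libraries in 4 groups of 3. The groups crossed genotype, wild type (WT) or *Sema6d*-/- (labelled 6DKO), with treatment, PBS or recombinant IL-33 given into the nose for 3 days, and the design asks what IL-33 changes in these cells and whether loss of semaphorin 6D alters it. The labels give an IL-33 dose of 50 ng. All mice were young adults on the C57BL/6 background (C57BL/6J in the methods) and were killed the day after the last dose. The cells were sorted as CD45+ Lin- Thy1.2+ ST2+, and the mice of the 6DKO groups carry the *Sema6d* deletion in every cell, so that the genotype is not limited to ILC2s. WT PBS, 6DKO PBS, WT IL-33 and 6DKO IL-33 are the group names used below.

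NF-κB is a family of dimers that wait in the cytoplasm, bound by IκB proteins, until IκB kinase marks the inhibitor for degradation and the dimer enters the nucleus. Among the genes it switches on are its own inhibitors, which end the response and can hold it down afterwards. In ILC2s the pathway is activated by IL-33 through the receptor ST2, MyD88, IRAK kinases and TRAF6, and contributes to the production of type 2 cytokines.

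*Sema6d*, the targeted gene, was read in every library. Its level was 27.6, 46.1 and 37.5 FPKM (fragments scaled by the length of the gene model and by the fragments mapped in the library) in WT PBS and 29.0, 22.9 and 19.8 FPKM in 6DKO PBS. After IL-33 it was 19.7, 35.5 and 28.7 FPKM in WT and 15.4, 13.6 and 13.8 FPKM in 6DKO. The 6DKO libraries lay below all WT libraries under IL-33, whereas under PBS the genotypes overlapped, and neither difference passed limma's test (log2 fold change −0.89, adjusted p = 1, under IL-33, and −0.60, adjusted p = 0.446, under PBS). Which part of the gene the deletion removes is not given in the sources used here, so these levels do not check the genotype labels of the PBS libraries.

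The PBS libraries were sparser than the IL-33 libraries. Between 7696 and 9287 genes were above 1 FPKM in a PBS library and between 9917 and 10081 in an IL-33 library. Of 3617 genes with a mean of 5 to 20 FPKM, 4.67% to 17.7% had a value of 0 in a PBS library, with 13.1% and 14.8% in WT PBS replicates 1 and 2 and 17.7% in 6DKO PBS replicate 1, but 0.691% to 1.38% in an IL-33 library. None of the 10 genes was listed at 0 in any library. Some libraries also stood apart by transcripts of other cells. 6DKO PBS replicate 2 held natural killer (NK) cell transcripts, with *Gzma* at 653 FPKM against 0 to 37.2 FPKM in the others, although antibodies against NK1.1 were part of the Lin gate, as were those against F4/80 and CD11c of macrophages. The macrophage gene *Chil3* was at 394 FPKM in 6DKO IL-33 replicate 2, 83.1 FPKM in 6DKO IL-33 replicate 3 and 51.1 FPKM in 6DKO PBS replicate 2, and at most 5.13 FPKM in the others. Calls on the 10 genes that change without these libraries are given with and without them.

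Transcripts of the inhibitors other than *Bcl3* were far more abundant than subunit transcripts. *Nfkbia* ranked 20 among all 24346 symbols by its mean over the 12 libraries (3678 FPKM), followed among these genes by *Tnfaip3* (1167 FPKM, rank 117), *Nfkbid* (871 FPKM, rank 154) and *Nfkbiz* (555 FPKM, rank 240). The subunit genes came next, with means from 116 FPKM for *Nfkb1* (rank 944) down to 58.5 FPKM for *Rel* (rank 1776), and *Bcl3* was lowest (26.5 FPKM, rank 3180). *Nfkbia*, *Tnfaip3*, *Nfkbid* and *Nfkbiz* together made up 93.5% to 95.5% of the summed FPKM of the 10 genes in PBS libraries and 90.2% to 92.9% in IL-33 libraries. The order *Nfkbia*, *Tnfaip3*, *Nfkbid*, *Nfkbiz*, *Nfkb1* held for the means of all 4 groups, and each of these neighbours was separate in every group except *Nfkbid* and *Nfkbiz* in WT PBS. Below *Nfkb1*, the order of the other subunits changed between groups and most neighbours overlapped.

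**Figure D1:**
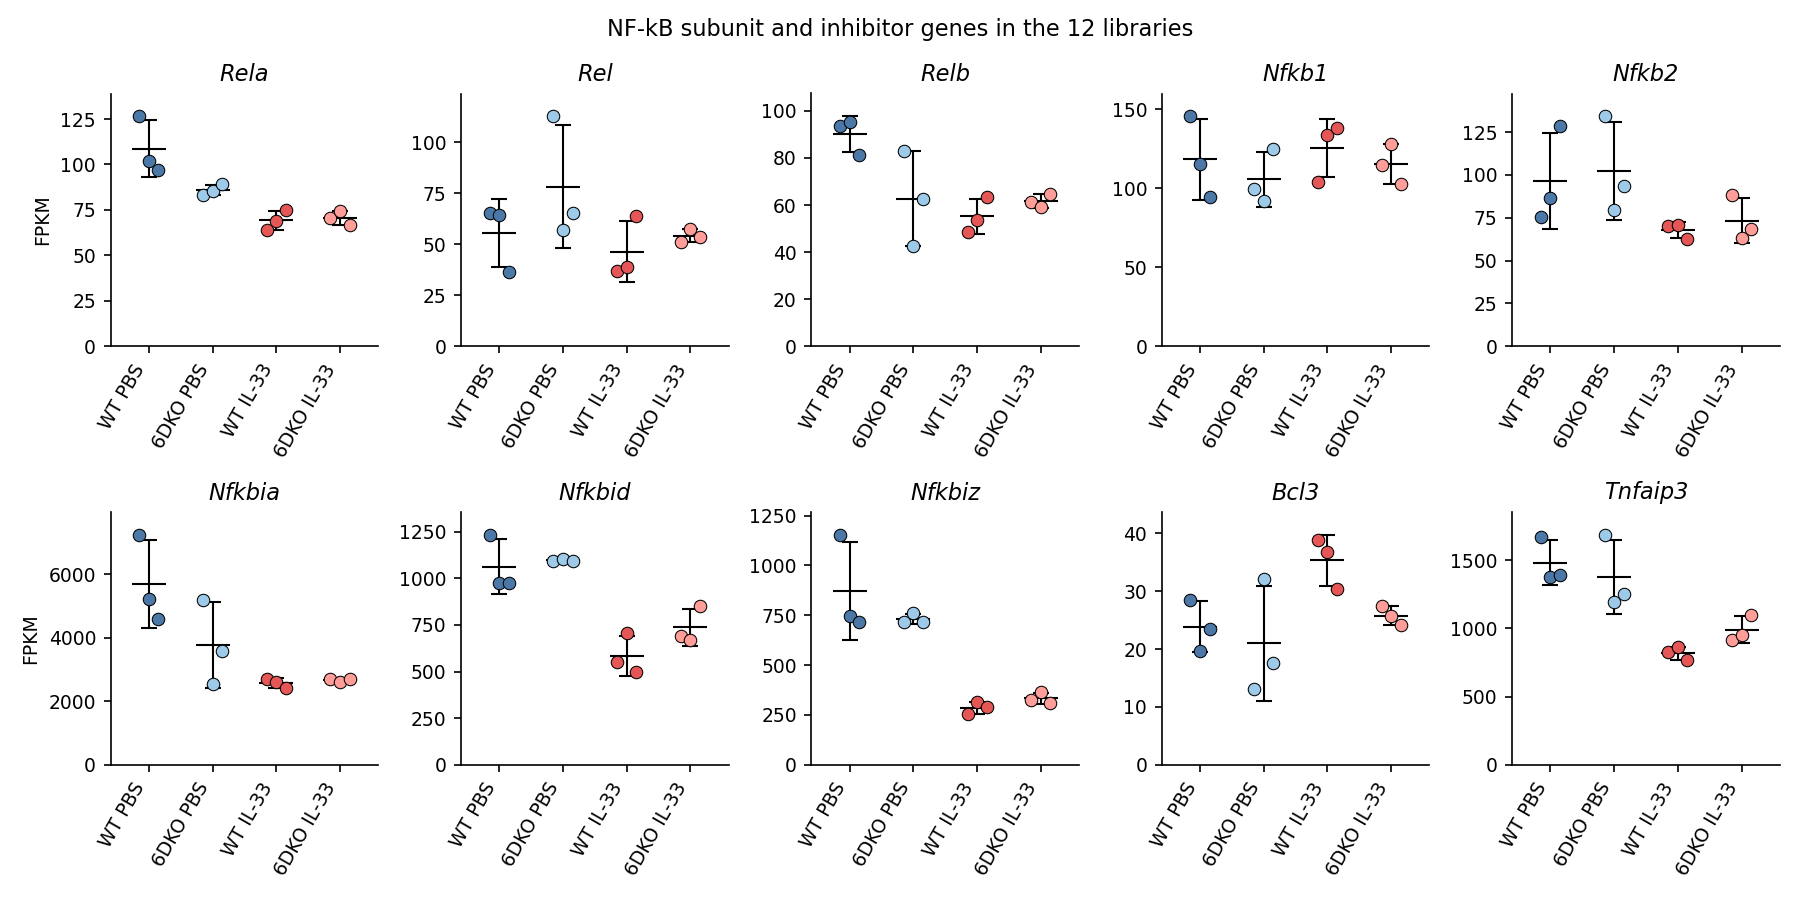
FPKM (vertical axes, starting at 0) of the 10 genes in each library, with 3 points per group and the group mean ± SD as black bars. *Nfkbiz*, *Nfkbid* and *Tnfaip3* were lower in all 6 IL-33 libraries than in any PBS library, and *Nfkbia* ranged from 2541 to 7244 FPKM among PBS libraries but only from 2412 to 2706 FPKM among IL-33 libraries.

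Transcripts of 4 genes listed as inhibitors were lower after 3 days of IL-33. Of these, *Nfkbiz* and *Nfkbid* encode proteins that coactivate at some genes and repress at others. Averaged over the genotypes, limma called 5 of the 10 genes lower (*Nfkbiz*, *Nfkbia*, *Nfkbid*, *Tnfaip3* and *Rela*) and 0 higher, where 3.12% of the 11437 genes tested were called lower and 5.86% higher. At an unadjusted p under 0.05 the counts were 6 lower and 0 higher, beside 835 lower and 1766 higher of the 11437 genes tested. The median log2 fold change of the 10 genes was −0.46, against 0.16 over all genes tested. In 4 of the 10 genes every IL-33 library lay below every PBS library, which held for 2.33% of all genes, and in 0 above it, against 4.11%. These shares are of all genes tested, not of genes of like abundance, and the members' count lower exceeded them several fold. The members were chosen with earlier results of these data known, so this excess is a description and not a test. Whether other genes as abundant as the inhibitors shifted alike between the sparser PBS libraries and the IL-33 libraries was not tested. In data simulated for the averaged comparison with some genes changed and unequal spread between groups, more calls were false than the threshold stands for. The other comparisons were not simulated, and their calls may be affected too. Because the RNA is from sorted cells in bulk, fewer cells of a type and less RNA per cell cannot be told apart.

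Within WT, limma called 4 of the 10 genes lower and 0 higher (1.63% and 2.73% of all genes). An unadjusted p under 0.05 was reached by 6 of the 10, beside 2035 of the 11437 genes tested. In 7 of the 10 the WT IL-33 libraries all lay below the WT PBS libraries and in 1, *Bcl3*, above them, against 9.20% and 15.8% of all genes. Within 6DKO, 1 gene, *Nfkbiz*, was called lower and 0 higher (1.13% and 1.82% of all genes). An unadjusted p under 0.05 was reached by 3 of the 10, beside 1759 of the 11437 genes tested. The groups did not overlap in 4 of the 10 genes in 6DKO, all lower, against 8.72% lower and 13.9% higher of all genes. The median log2 fold changes of the 10 genes were −0.67 in WT and −0.45 in 6DKO, beside 0.16 and 0.14 over all genes. That more genes were called in WT is not a difference between genotypes: the test of the interaction is given with the genotype comparisons.

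*Rela* encodes p65, the main activating partner in the dimer released by the classical pathway. Its level was 126, 102 and 97.2 FPKM in WT PBS and 83.2, 85.4 and 89.0 FPKM in 6DKO PBS, against 64.1, 69.0 and 74.7 FPKM in WT IL-33 and 70.6, 74.6 and 66.6 FPKM in 6DKO IL-33. WT PBS was highest and 6DKO PBS next, each apart from the rest, and both IL-33 groups lay together at the bottom. Averaged over genotypes *Rela* fell by 0.46 on the log2 scale (SE 0.119, adjusted p = 0.0357), with 6 of 6 IL-33 libraries below every PBS library. This call was lost when any of the 6 IL-33 libraries was left out, with adjusted p of 0.0852, 0.0782 and 0.058 without WT IL-33 replicates 1, 2 and 3 and of 0.0751, 0.062 and 0.0821 without 6DKO IL-33 replicates 1, 2 and 3. It was also lost with array weights (0.0602) and with a replicate block (0.0723), and over 20 alternatives adjusted p ran from 0.0168 to 0.0852. Within WT the log2 fold change of −0.63 had an adjusted p of 0.0606, which passed without WT PBS replicate 3 (0.0453), 6DKO PBS replicate 1 (0.0427) or 6DKO PBS replicate 2 (0.0427) and with a pseudocount of 0.1 (0.0478), no filter (0.0304) or a filter at 2 FPKM (0.048), in a range of 0.0304 to 0.192 over 21 alternatives.

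*Relb*, which encodes the activating partner of the noncanonical dimer, was at 93.65, 95.2 and 81.5 FPKM in WT PBS and 82.8, 42.4 and 62.7 FPKM in 6DKO PBS. After IL-33 it was at 48.3, 53.8 and 63.2 FPKM in WT and 61.4, 59.1 and 64.7 FPKM in 6DKO. All WT PBS libraries were above both IL-33 groups. 6DKO PBS spread from below the IL-33 libraries to just above the lowest WT PBS library, and was lowest in the library with NK cell transcripts. The averaged log2 fold change was −0.34 (adjusted p = 0.271). Without 6DKO PBS replicate 2 it was −0.46 with an adjusted p of 0.04996, and the WT log2 fold change of −0.70 (adjusted p = 0.143) then had an adjusted p of 0.0463, in ranges of 0.04996 to 0.561 over 20 alternatives and 0.0463 to 0.375 over 21. *Rel*, which encodes c-Rel, a subunit prominent in lymphocytes, ranged from 36.25 to 113 FPKM in PBS libraries and from 36.8 to 63.7 FPKM in IL-33 libraries, and its 4 groups overlapped (averaged log2 fold change −0.35, adjusted p = 0.41).

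*Nfkb1* and *Nfkb2* encode the precursors p105 and p100, which are processed to the DNA-binding subunits p50 and p52 and, unprocessed, retain dimers in the cytoplasm. *Nfkb1* was between 92.1 and 145 FPKM in PBS libraries and between 102.5 and 138 FPKM in IL-33 libraries, and no group stood apart. Its averaged log2 fold change of 0.11 (95% interval −0.21 to 0.44, adjusted p = 0.706) was the smallest of the 10 genes. *Nfkb2* was at 75.2, 86.5 and 128 FPKM in WT PBS and 134, 79.3 and 93.6 FPKM in 6DKO PBS, against 70.4, 70.5 and 62.4 FPKM in WT IL-33 and 88.4, 63.4 and 68.3 FPKM in 6DKO IL-33. The WT groups did not overlap, the 6DKO groups did, and the averaged log2 fold change was −0.46 (adjusted p = 0.149). With the 3 PBS libraries that listed over 10% of mid-level genes at 0 left out together, it was −0.58 with an adjusted p of 0.0356, in a range of 0.0356 to 0.294 over 20 alternatives. That leaves WT PBS with 1 library, so the spread there comes from the other groups.

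*Nfkbia* encodes IκBα, the classical inhibitor that is degraded on activation and rapidly resynthesised under NF-κB control. It was at 7244, 5218 and 4607 FPKM in WT PBS and 5206, 2541 and 3577 FPKM in 6DKO PBS. After IL-33 it was at 2704, 2604 and 2412 FPKM in WT and 2699, 2616 and 2706 FPKM in 6DKO. PBS libraries spread widely and IL-33 libraries were nearly alike, and the sole overlap came from 6DKO PBS replicate 2, which lay among the IL-33 libraries. Averaged over genotypes *Nfkbia* fell by 0.78 on the log2 scale (SE 0.158, adjusted p = 0.0105), a call made under all 20 alternatives, and all 6 IL-33 libraries lay below the other 5 PBS libraries. Within WT it fell by 1.12 (SE 0.223, adjusted p = 0.0163), with 3 of 3 WT IL-33 libraries below every WT PBS library. The WT call was lost without WT PBS replicate 1 (adjusted p = 0.0589) and without WT IL-33 replicate 1, 2 or 3 (0.0573, 0.061 and 0.0737), in a range of 0.00215 to 0.0737 over 21 alternatives. In 6DKO the log2 fold change was −0.44 (adjusted p = 0.388). *Nfkbia* took the largest share of the summed FPKM of the 10 genes in every library, 42.4% to 61.2% under PBS and 50.6% to 57.5% under IL-33.

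*Nfkbiz*, *Nfkbid* and *Bcl3* encode atypical IκB proteins that act in the nucleus on DNA-bound dimers, as coactivators at some genes and repressors at others. *Nfkbiz*, which encodes IκBζ, was at 1153, 748 and 714 FPKM in WT PBS and 716, 761 and 717 FPKM in 6DKO PBS, against 254.5, 313 and 287.5 FPKM in WT IL-33 and 326, 363 and 309 FPKM in 6DKO IL-33. The lowest PBS library was well above the highest IL-33 library in both genotypes, and WT PBS replicate 1 stood above its group. The averaged fall of 1.36 on the log2 scale, a 2.56-fold difference (SE 0.122, adjusted p = 6.94e-05, lower in 6 of 6 IL-33 libraries), was the largest among the 10 genes. *Nfkbiz* fell by 1.58 in WT (SE 0.173, adjusted p = 6.58e-04) and by 1.14 in 6DKO (SE 0.173, adjusted p = 0.00622), and it was called in all 3 comparisons under every alternative tried.

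*Nfkbid*, which encodes IκBNS, was at 1233, 977 and 977 FPKM in WT PBS and 1095, 1106 and 1092 FPKM in 6DKO PBS. After IL-33 it was at 552, 706 and 498 FPKM in WT and 690.5, 672 and 852 FPKM in 6DKO. Again no IL-33 library reached the lowest PBS library, and the genotypes overlapped within each treatment. *Nfkbid* fell by 0.72 on the log2 scale averaged over genotypes (SE 0.107, adjusted p = 0.00161), called under all 20 alternatives, and by 0.87 in WT (SE 0.151, adjusted p = 0.0087, 3 of 3 libraries lower). The WT call was lost with array weights (adjusted p = 0.0684), with only the WT groups in the fit (0.0568) and with the 3 sparsest PBS libraries left out together (0.0817), in a range of 0.00736 to 0.0817 over 21 alternatives. In 6DKO the log2 fold change was −0.58 (adjusted p = 0.0715).

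*Bcl3* went the other way without passing the test. It was at 28.5, 19.7 and 23.4 FPKM in WT PBS and 13.1, 32.2 and 17.6 FPKM in 6DKO PBS, against 38.9, 36.7 and 30.4 FPKM in WT IL-33 and 27.5, 25.8 and 24.2 FPKM in 6DKO IL-33. All WT IL-33 libraries were above the WT PBS and 6DKO IL-33 libraries, and 6DKO PBS spanned from below to within the range of WT IL-33. The averaged log2 fold change was 0.47 (adjusted p = 0.256). Without 6DKO PBS replicate 2, the highest PBS library, it was 0.64 with an adjusted p of 0.0457, in a range of 0.0457 to 0.417 over 20 alternatives.

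*Tnfaip3* encodes A20, a ubiquitin-editing enzyme that shuts off signalling upstream of IκB kinase. It was at 1672, 1378 and 1395 FPKM in WT PBS and 1686, 1193 and 1255 FPKM in 6DKO PBS, against 830.2, 860.4 and 767 FPKM in WT IL-33 and 917, 950.4 and 1101 FPKM in 6DKO IL-33. The PBS groups overlapped, and below them 6DKO IL-33 lay apart from WT IL-33, which was lowest. Averaged over genotypes *Tnfaip3* fell by 0.66 on the log2 scale (SE 0.101, adjusted p = 0.00192, lower in 6 of 6 IL-33 libraries), and within WT by 0.85 (SE 0.143, adjusted p = 0.00716, 3 of 3 libraries lower). Both calls held under every alternative tried. In 6DKO the log2 fold change was −0.46 (adjusted p = 0.128), with 3 of 3 IL-33 libraries below the PBS libraries.

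**Figure D2:**
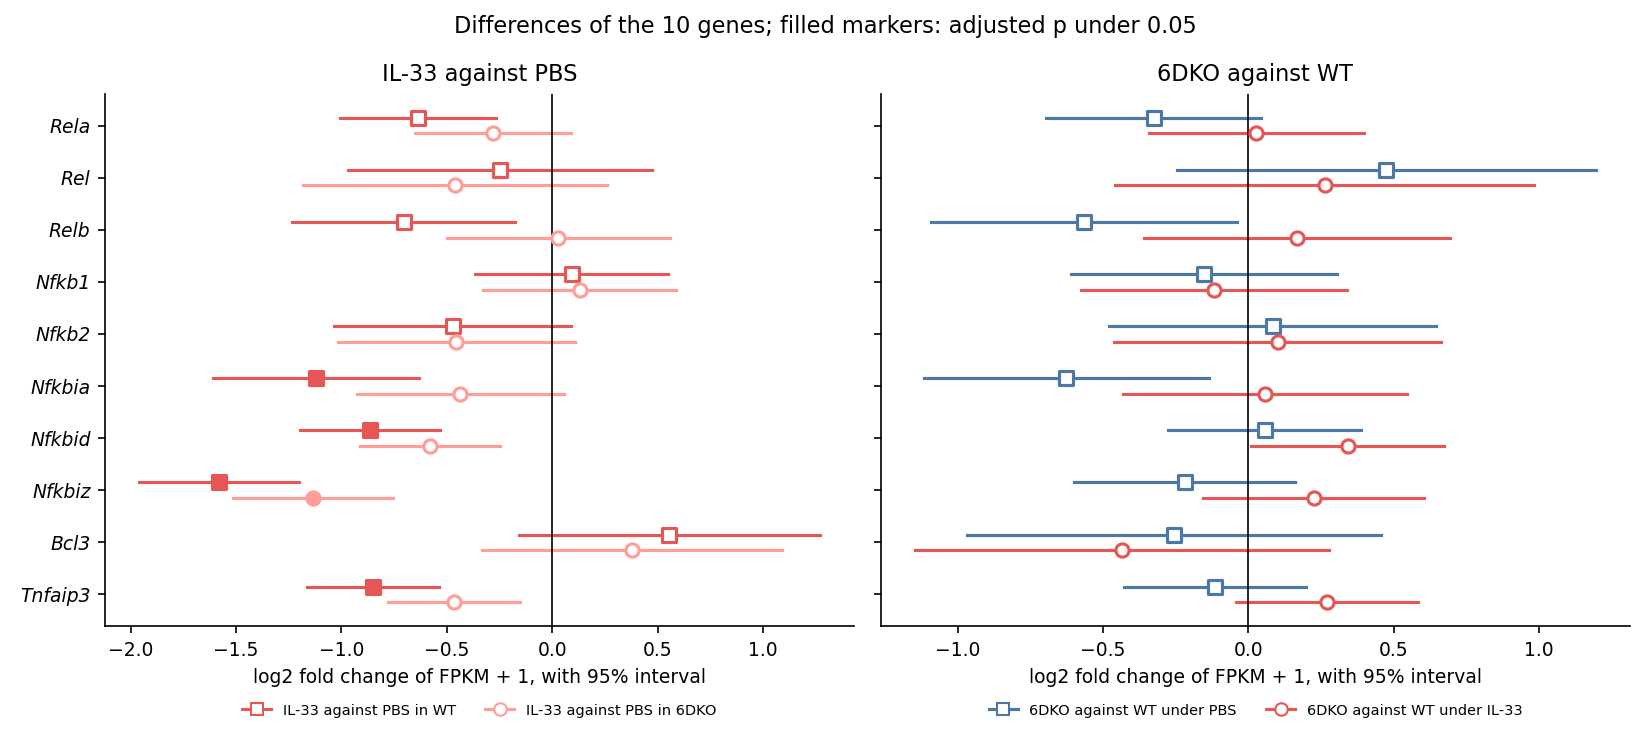
Log2 fold changes of FPKM + 1 (horizontal axes) with 95% intervals for the 10 genes, for IL-33 against PBS in WT (squares) and 6DKO (circles) and for 6DKO against WT under PBS (squares) and IL-33 (circles). Filled markers have an adjusted p under 0.05: 4 genes in WT, 1 gene in 6DKO and 0 in either comparison of genotypes.

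Between genotypes no member passed the test. Under IL-33, limma called 0 of the 10 genes (0.00874% of all genes were called, that is 1 gene). An unadjusted p under 0.05 was reached by 221 of the 11437 genes tested and by 1 of the 10, *Nfkbid* (log2 fold change 0.34, SE 0.151, unadjusted p = 0.045, adjusted p = 1). Under IL-33 no library of one genotype reached the other in 2 of the 10 genes, *Bcl3* lower and *Tnfaip3* higher in 6DKO, against 14.2% of all genes, which is near the members' share. Under PBS, 0 of the 10 were called (0.595% of all genes). An unadjusted p under 0.05 was reached by 1487 of the 11437 genes tested and by 2 of the 10. These were *Nfkbia* (log2 fold change −0.63, SE 0.223, unadjusted p = 0.0167, adjusted p = 0.283) and *Relb* (−0.57, SE 0.24, unadjusted p = 0.0379, adjusted p = 0.35). Under PBS 1 of the 10 did not overlap, *Rela* (lower in 3 of 3 6DKO libraries), against 8.59% of all genes. The median log2 fold change of the 10 genes was 0.13 under IL-33 and −0.19 under PBS, beside 0.01 and 0.00 over all genes.

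The interaction asks whether the response to IL-33 differed between genotypes. Limma called 0 of the 10 genes (0.0175% of all genes), with 0 at an unadjusted p under 0.05, beside 648 of the 11437 genes tested. Closest were *Nfkbia* (log2 difference of responses 0.68, 95% interval −0.01 to 1.38, unadjusted p = 0.0527, adjusted p = 0.873) and *Relb* (0.73, 95% interval −0.01 to 1.48, unadjusted p = 0.0535, adjusted p = 0.873). For *Nfkbid* (0.29) and *Tnfaip3* (0.39), called in WT and not in 6DKO, the adjusted p was 0.888 in both. Of the 10 differences 8 were above 0, that is, a smaller fall or larger rise in 6DKO, with a median of 0.32 against −0.02 over all genes. The 95% intervals reached past 1 log2 unit for *Nfkbia*, *Relb*, *Rel* and *Bcl3* and stayed within it for the other 6, and the PBS groups that enter them are the sparser ones. The comparisons share libraries, so their values are set side by side only.

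Immediate early genes, which also respond to tissue digestion and sorting, moved with the inhibitors. A list of genes of tissue handling holds 14, immediate early genes and the heat shock genes *Hspa1a*, *Hspa1b*, *Hsp90aa1* and *Dnajb1*. Of the 14, 10 were called lower after IL-33 averaged over genotypes and 0 higher, beside 3.12% and 5.86% of all genes. Their median log2 fold change was −1.11 against 0.16 over all genes, and the 10 were called under all 20 alternatives. The 4 heat shock genes were the ones not called (log2 fold changes from −0.61 for *Hspa1b* to 0.23 for *Hsp90aa1*). The 14 genes were all above 0, and their summed level was 18020, 14490 and 16460 FPKM in WT PBS and 14450, 10200 and 11650 FPKM in 6DKO PBS, against 7190, 6993 and 5885 FPKM in WT IL-33 and 7237, 7263 and 7578 FPKM in 6DKO IL-33. PBS libraries were thus higher throughout, WT PBS most of all. The most abundant was *Junb* (mean 2631 FPKM, log2 fold change −0.57, adjusted p = 0.00282), followed by *Dusp1* (−0.71, adjusted p = 0.00335), and among the largest falls were *Atf3* (−1.95, adjusted p = 7.81e-05), *Zfp36* (−1.54, adjusted p = 1.35e-04), *Egr1* (−1.49, adjusted p = 1.35e-04) and *Fos* (−1.29, adjusted p = 3.42e-05). All of these except *Dusp1* were lower in 6 of 6 IL-33 libraries than in any PBS library. In WT 10 and in 6DKO 7 of the 14 were called lower, 8 and 2 of them under all 21 alternatives, with 0 higher in either. The shares of all genes called lower were 1.63% in WT and 1.13% in 6DKO. The part of this response in the fall of the inhibitors was not tested.

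Between genotypes under PBS, 1 gene of the same list was called, beside 0.595% of all genes. *Jun* was at 769, 657.5 and 927 FPKM in WT PBS and 494, 348.5 and 381 FPKM in 6DKO PBS, and limma called it lower in 6DKO (log2 fold change −0.94, adjusted p = 0.0386, lower in 3 of 3 libraries). The call rested on many libraries: it was lost without WT PBS replicate 1 (0.0669) or 3 (0.052), 6DKO PBS replicate 2 (0.063) or 3 (0.0632), WT IL-33 replicate 1 (0.079), 2 (0.0792) or 3 (0.0793) and 6DKO IL-33 replicate 1 (0.075), 2 (0.0759) or 3 (0.0642), and it held in 6 of 21 alternatives with adjusted p from 0.0122 to 0.724. *Fos* was near it (−0.74, adjusted p = 0.0545), while *Egr1* went the other way (0.61, unadjusted p = 0.0165, adjusted p = 0.283, higher in 3 of 3 libraries). *Nfkbia* also leaned lower in 6DKO PBS, but the groups overlapped and it did not pass limma's test (adjusted p = 0.283). Whether these differences share a source was not tested.

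The sort held ILC2s by their markers. All 12 genes of an ILC2 list (*Gata3*, *Rora*, *Il1rl1*, *Il7r*, *Thy1*, *Klrg1*, *Icos*, *Id2*, *Il2ra*, *Areg*, *Ptprc* and *Ptpn13*) had means of at least 10 FPKM, and their sum was between 5276 and 8403 FPKM in a library. Their own levels changed: averaged over genotypes limma called 4 of the 12 lower and 1 higher after IL-33 (median −0.07), beside 3.12% and 5.86% of all genes. *Il2ra*, *Ptpn13* (−1.12, adjusted p = 0.0147) and *Klrg1* (0.93, adjusted p = 0.0136), each apart in 6 of 6 IL-33 libraries, were called under all 20 alternatives. *Areg* (−0.52, adjusted p = 0.0191) was lost without WT IL-33 replicate 1 (0.0534) or 6DKO IL-33 replicate 1 (0.0569) or 2 (0.0559) and with the 3 sparsest PBS libraries left out together (0.102), in a range of 0.00324 to 0.102, and *Icos* (−0.53, adjusted p = 0.036) without any library other than WT PBS replicate 2 and 6DKO PBS replicate 2 (0.0545 to 0.086), in a range of 0.00963 to 0.086. Some defining genes of other cells were at 0 in all libraries, namely *Epx* and *Prg2* of eosinophils, *S100a8* and *S100a9* of neutrophils, *Ms4a1* and *Pax5* of B cells, *Cd4* of T cells and *Mcpt8* and *Mcpt4* of basophils and mast cells. Other genes of such lists were read, among them *Cd3g* of T cells, between 189.7 and 480 FPKM (averaged log2 fold change −0.12, adjusted p = 0.772). *Cd3g* does not stand for its list: no other of the 7 T cell genes had a mean of at least 10 FPKM. Of the 6 NK cell genes all were above 0 somewhere, and their sum was 19.5, 0 and 4.78 FPKM in WT PBS, 0, 759 and 0 FPKM in 6DKO PBS, 0, 0.825 and 5.11 FPKM in WT IL-33 and 40.2, 3.02 and 0 FPKM in 6DKO IL-33, with *Gzma* the most abundant. One 6DKO PBS library thus held nearly all of it. Without that library 7 of the 10 genes were called averaged over genotypes, 6 lower and *Bcl3* higher, and 6 in WT. Counts over all genes also moved when single libraries were left out, as given below. The larger counts are therefore not read as particular to the 10 genes.

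Macrophage and monocyte genes, all 14 above 0 somewhere, summed to 306, 379 and 360.3 FPKM in WT PBS, 340.1, 515 and 321 FPKM in 6DKO PBS, 98.6, 115 and 86.1 FPKM in WT IL-33 and 161, 521 and 244.5 FPKM in 6DKO IL-33. Most of the lower sum in WT IL-33 was *Ccr2*, the most abundant gene of the list (mean 219 FPKM), which ILC2s can express. It fell in both genotypes (−1.83, adjusted p = 4.0e-04, in WT and −1.55, adjusted p = 0.00164, in 6DKO, 3 of 3 libraries lower in each), under all 21 alternatives. *Cd68*, under 0.5 FPKM in every PBS library, was called higher in 6DKO (2.08, adjusted p = 0.0215, 3 of 3 libraries), where it was at 4.87, 4.15 and 2.1 FPKM after IL-33, but not in WT (0.19, adjusted p = 0.875), with an adjusted p of 0.703 for the interaction. The 6DKO call was lost without 6DKO IL-33 replicate 1 (0.0796) or 2 (0.0763), with a pseudocount of 0.1 (0.0629), with array weights (0.0923) and after quantile normalization (0.244), in a range of 0.0146 to 0.244, and the averaged call held in 9 of 20 alternatives. *Lyz2* and *Chil3* were highest in 6DKO PBS replicate 2 and in 6DKO IL-33 replicates 2 and 3. Within 6DKO, limma called 1 of the 14 genes higher and 1 lower (1.82% and 1.13% of all genes) and did not call 12, with a median log2 fold change of −0.06. Among those not called, some leaned lower, such as *Mrc1* (−1.56, adjusted p = 0.207, 3 of 3 libraries) and *Marco* (−1.02). Others leaned higher, such as *C1qb* (1.47) and *Ly6c2* (1.09). *Cpa3* of mast cells was between 42.9 and 89.3 FPKM in PBS and between 17.8 and 40.02 FPKM in IL-33 libraries, without overlap, and limma called it lower averaged over genotypes (−1.35, adjusted p = 0.00778) under all 20 alternatives. *Cpa3* does not stand for its list: limma called none of the other 4 mast cell and basophil genes, and the median of the 5 was 0. *Fcer1a* leaned the other way in WT (0.67) and was at 0 change in 6DKO. *Epcam* of epithelium, between 16.4 and 54.0 FPKM in PBS and between 0 and 8.71 FPKM in IL-33 libraries, was also called lower (adjusted p = 0.00434), and *Cd79b* of B cells, at most 8.9 FPKM in PBS and between 2.76 and 26.8 FPKM in IL-33 libraries, higher (adjusted p = 0.014). Both calls were lost with array weights (0.0701 and 0.0523) and with the 3 sparsest PBS libraries left out together (0.0639 and 0.0818), in ranges of 0.0011 to 0.0701 and 0.00141 to 0.0818 over 20 alternatives. *Epcam* does not stand for its list: limma called none of the other 4 epithelial genes, *Cdh1* leaned the other way (1.68, adjusted p = 0.0848), the median of the 5 was 0.10, and their highest sum, 101 FPKM, was in 6DKO IL-33 replicate 3. The part of these cells in the values of the 10 genes was not tested.

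Of 35 listed genes between the IL-33 receptor and NF-κB, limma called 1 lower and 0 higher after IL-33 averaged over genotypes, near the 3.12% of all genes called lower and below the 5.86% called higher, with a median log2 fold change of 0.02 against 0.16 over all genes. Among the 4 kinase genes, *Ikbkb*, which encodes the catalytic IKKβ, was called lower. It was at 65.7, 71.8 and 75.7 FPKM in WT PBS and 66.0, 99.0 and 76.8 FPKM in 6DKO PBS, against 39.0, 36.02 and 32.1 FPKM in WT IL-33 and 43.5, 49.0 and 52.2 FPKM in 6DKO IL-33. The treatments did not overlap (log2 fold change −0.84, SE 0.146, adjusted p = 0.0041, lower in 6 of 6 libraries), and the call held under all 20 alternatives. *Chuk*, which encodes IKKα, was between 16.5 and 65.5 FPKM with a log2 fold change of 0.02 (adjusted p = 0.972).

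None of the remaining pathway genes was called by limma in that comparison. Of the 12 genes from the IL-33 receptor to the kinase TAK1 the median was −0.22. The most abundant were *Il1rl1*, which encodes ST2 (mean 185 FPKM, log2 fold change 0.12, adjusted p = 0.697), and *Irak1* (−0.54, adjusted p = 0.0709). The other IκB proteins were *Nfkbib* (0.70, adjusted p = 0.087) and *Nfkbie* (0.16, adjusted p = 0.767), and neither shared the fall of *Nfkbia*. Among 5 TRAF and cIAP genes (median 0.04), *Birc3* had a log2 fold change of −0.12 (adjusted p = 0.736) and *Traf1* of 0.54 (adjusted p = 0.197). Among 12 genes of linear ubiquitin and of partners of A20 (median 0.22), *Tax1bp1* had one of 0.17 (adjusted p = 0.468) and *Rbck1* of 0.41 (adjusted p = 0.265). Of the 35 genes, 1 was called lower in WT, *Ikbkb*, and 0 in 6DKO, where its log2 fold change was −0.71 (adjusted p = 0.105), and limma's interaction gave an adjusted p of 0.901. The WT call of *Ikbkb* (log2 fold change −0.98, adjusted p = 0.0223) was lost without WT IL-33 replicate 1 (0.0565), 2 (0.0702) or 3 (0.0951), in a range of 0.0098 to 0.0951.

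Textbook target genes of NF-κB split in both directions. Of 26 such genes, 6 were called lower and 5 higher after IL-33 averaged over genotypes, beside 3.12% lower and 5.86% higher of all genes. Their median log2 fold change was −0.14, against 0.16 over all genes. The 6 lower genes encode cytokines, a cytokine receptor chain and a stress protein: *Il2* (−2.69, adjusted p = 1.37e-05), *Il2ra* (−1.86, adjusted p = 6.94e-05), *Cxcl2* (−1.63, adjusted p = 1.05e-04), *Tnf* (−1.54, adjusted p = 8.75e-04), *Csf2* (−1.22, adjusted p = 6.94e-05) and *Gadd45b* (−1.01, adjusted p = 1.73e-05). Each was lower in 6 of 6 IL-33 libraries than in any PBS library and was called under all 20 alternatives. *Csf2*, which encodes GM-CSF, was the most abundant, at 2819, 3466 and 2341 FPKM in WT PBS and 3044, 2514 and 2675 FPKM in 6DKO PBS, against 1041, 1416 and 1267 FPKM in WT IL-33 and 1248, 1196 and 1051 FPKM in 6DKO IL-33. Its levels fell to less than the lowest PBS library in both genotypes.

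*Cd83*, which encodes a surface protein of activated leukocytes, rose. It was at 27.3, 33.0 and 45.1 FPKM in WT PBS and 82.3, 66.2 and 47.05 FPKM in 6DKO PBS, against 239, 325 and 403 FPKM in WT IL-33 and 369, 396 and 381 FPKM in 6DKO IL-33. No treatment groups overlapped (log2 fold change 2.86, adjusted p = 7.05e-06, higher in 6 of 6 libraries), and the call held under all 20 alternatives. The other genes called higher were *Vcam1*, the adhesion molecule (2.19, adjusted p = 0.00187), and the sugar transporter gene *Slc2a6* (2.29, adjusted p = 0.00362), both under 2 FPKM in every PBS library, together with *Il6* and *Bcl2a1d*. The *Slc2a6* call was lost after quantile normalization (0.0508), in a range of 0.00232 to 0.0508 over 20 alternatives. *Il6* was at 0, 16.1 and 11.1 FPKM in WT PBS and 18.7, 0 and 40.1 FPKM in 6DKO PBS, and at 83.8, 175 and 122 FPKM in WT IL-33 and 124, 89.1 and 90.0 FPKM in 6DKO IL-33 (3.90, adjusted p = 0.0204, higher in 6 of 6). The *Il6* call was lost without WT IL-33 replicate 2 (0.0552) or 3 (0.0512) or 6DKO IL-33 replicate 1 (0.0547), with the 3 sparsest PBS libraries left out together (0.0648) and with a pseudocount of 0.1 (0.0711), in a range of 0.00673 to 0.0711. *Bcl2a1d*, named after its values were seen, had a log2 fold change of 0.997 (adjusted p = 0.0328), lost without 6DKO PBS replicate 1 (0.058) or 2 (0.0591) and without any IL-33 library (0.0591 to 0.0877).

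Within WT 6 of the 26 target genes were called lower and 2 higher, and within 6DKO 6 lower and 3 higher, of which 6 and 5 held under all 21 alternatives. The shares of all genes called lower and higher were 1.63% and 2.73% in WT and 1.13% and 1.82% in 6DKO. Their summed level was 8330.0, 9717 and 8445 FPKM in WT PBS and 8467, 7372 and 7358 FPKM in 6DKO PBS, against 3884, 4816 and 4742 FPKM in WT IL-33 and 4342, 4119 and 4347 FPKM in 6DKO IL-33. Between genotypes, limma called 0 of the 26 under IL-33 and 0 under PBS, beside 0.00874% and 0.595% of all genes.

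**Figure D3:**
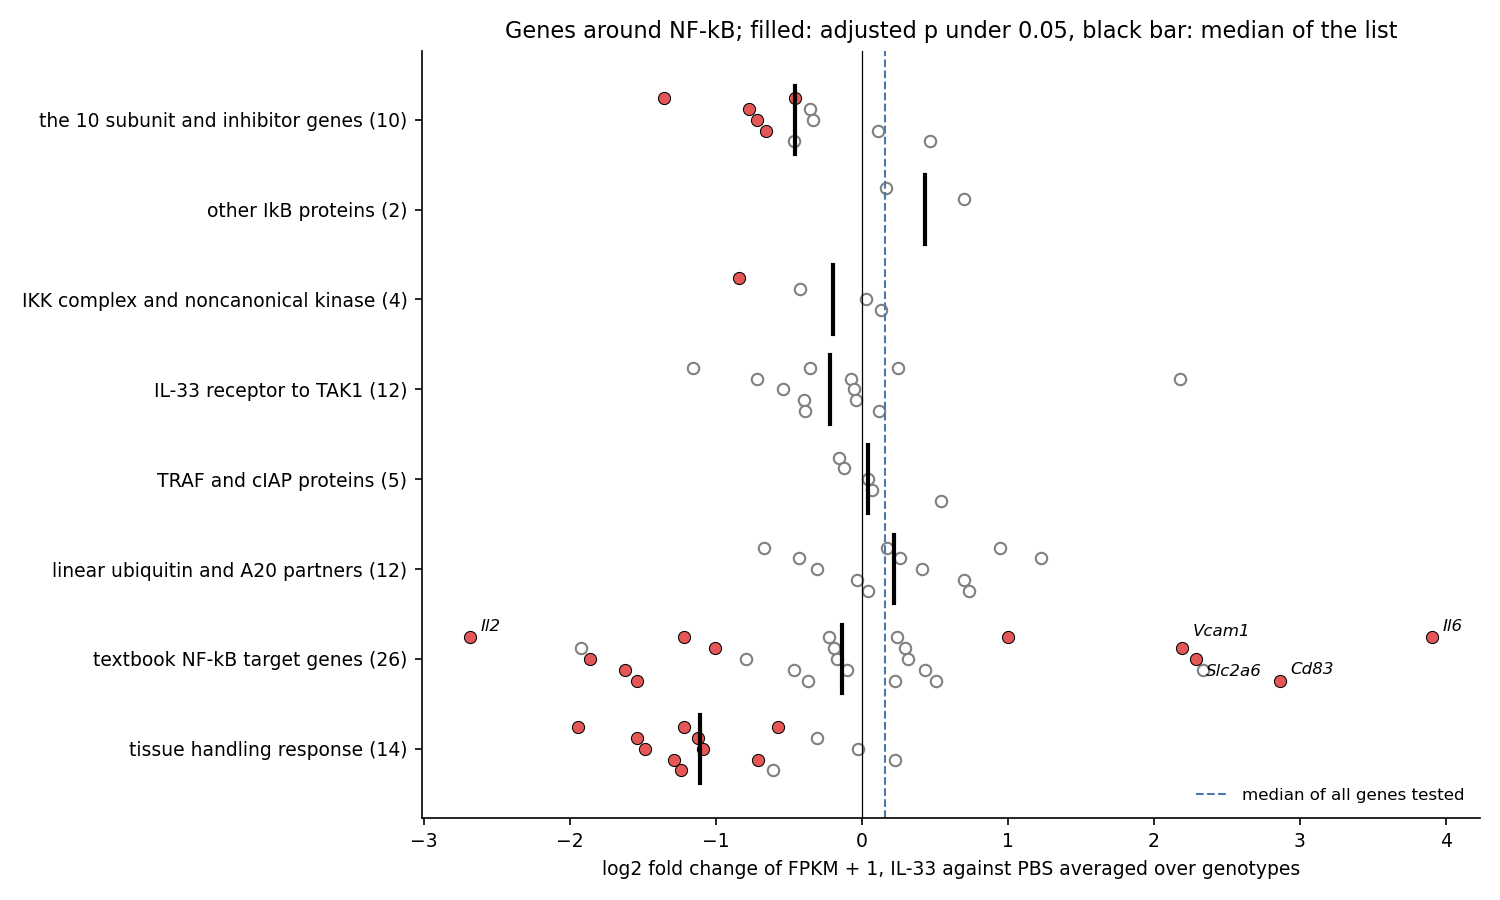
Log2 fold change of FPKM + 1 after IL-33 averaged over genotypes (horizontal axis) for the 10 genes and for 7 lists of genes around them, with 1 point per gene, filled where the adjusted p was under 0.05, a black bar at each list's median and a dashed line at the median of all genes tested (0.16). The medians of 5 of the 7 lists lay below the line, lowest for tissue handling (−1.11), as did that of the 10 genes (−0.46), and the target genes (−0.14) held 6 called lower and 5 called higher.

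Profiles over the 12 libraries were compared by the root mean square difference of log2(FPKM + 1), each centred on its own mean, among 7412 genes that averaged 5 FPKM or more. *Nfkbid* and *Tnfaip3* were the closest pair of the 10 genes (0.157), followed by *Rela* and *Tnfaip3* (0.227). For *Nfkbiz* the nearest were *Ier2* (0.192) and *Prdx6* (0.203), for *Nfkbia* *Stim1* (0.174) and *Dusp1* (0.178), for *Nfkbid* *Coro2a* (0.155) and *Tnfaip3*, and for *Tnfaip3* *Lrch3* (0.125) and *Arf4* (0.131). *Ier2*, for example, was between 955 and 1274 FPKM in PBS libraries and between 397.5 and 558 FPKM in IL-33 libraries. The subunits lay near other genes: *Rela* near *Eif1* (0.122) and *Ubb* (0.13), *Relb* near *Ifngr1* (0.122) and *Ier5* (0.141), *Rel* near *Zdhhc18* (0.21) and *Arhgap15* (0.224), *Nfkb1* near *Prkar1a* (0.134) and *Krtcap2* (0.141), and *Nfkb2* near *D17H6S56E-5* (0.159) and *Wdr83os* (0.159). *Bcl3* was nearest to *Stt3a* (0.207) and *Stk26* (0.209).

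In the mouse genome (GRCm38, GENCODE annotation) the 10 genes are protein-coding and lie on 7 chromosomes. *Nfkbia* is at chr12:55489410-55492647 on the minus strand, *Tnfaip3* at chr10:19000910-19015657 on the minus strand and *Nfkbiz* at chr16:55811375-55838899 on the minus strand. Chromosome 7 holds *Nfkbid* (chr7:30421732-30428746, plus strand) and, near each other on the minus strand, *Relb* (chr7:19606217-19629438) and *Bcl3* (chr7:19808462-19822770). Chromosome 19 holds *Rela* (chr19:5637483-5648130) and *Nfkb2* (chr19:46304320-46312385), both on the plus strand. *Nfkb1* is at chr3:135584655-135691547 and *Rel* at chr11:23736847-23770970, both on the minus strand. Exons of *Nfkb2* overlap opposite-strand exons of *Psd* by 299 bases (6.52% of the *Nfkb2* exon bases) and of *AC114539.1* by 531 bases (11.6%). Exons of *Bcl3* overlap *Gm16175* by 161 bases (6.51% of the *Bcl3* exon bases). *Psd* was between 1.78 and 5.98 FPKM, and *AC114539.1* and *Gm16175* have no value in these data. Whether the counting used strand is not given in the sources used here, so reads in these stretches cannot be told apart and the values of *Nfkb2* and *Bcl3* are uncertain to that extent.

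Because several of these genes moved together, their RefSeq promoters (GRCm38.p6, 250 bases before to 50 bases after each annotated start) were searched on both strands for the kappa B consensus of 10 letters. Promoters matched for 7 of the 10 genes, with 12 windows. *Nfkb1*, *Relb* and *Nfkbiz* had no entry. The consensus was found in 8 of the 12 windows and in 6 of the 7 genes (all but *Rela*), against 8.46% of 32851 windows and 9.55% of 27025 genes in the whole table. These matches describe the letters of the windows and are not evidence of binding in these cells.

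Stretches are shown for *Nfkbia*, the most abundant of the genes that fell, for *Nfkbid*, and for *Rel*, which did not pass the test, each 5′ to 3′ along its gene with the matches in capitals. They are at chr12:55492648-55492696 (minus strand), chr7:30422160-30422254 (plus strand, before an internal start of the gene) and chr11:23771031-23771081 (minus strand). In *Rel* matches on both strands overlap.
Nfkbia: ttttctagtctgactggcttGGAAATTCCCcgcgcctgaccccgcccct
Nfkbid: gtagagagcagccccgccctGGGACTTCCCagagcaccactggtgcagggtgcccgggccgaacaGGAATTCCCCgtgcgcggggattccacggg
Rel: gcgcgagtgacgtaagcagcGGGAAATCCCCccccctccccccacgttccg

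*Tnfaip3*, which fell, held matches GGGACACCCC (chr10:19015526-19015535) and GGAAATCCCC (chr10:19015413-19015422) before its start. *Nfkb2* and *Bcl3*, which did not pass the test, also held matches, among them GGGACTTTCC (chr19:46305705-46305714) and GGGAAGTCCC (chr7:19822744-19822753). This *Nfkb2* match lay 10 to 19 bases after annotated start 2 and, as the same site, before annotated start 3, so both windows counted it. The *Bcl3* match lay 2 to 11 bases after its start. *Rela*, which fell, held none in its window.

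**Figure D4:**
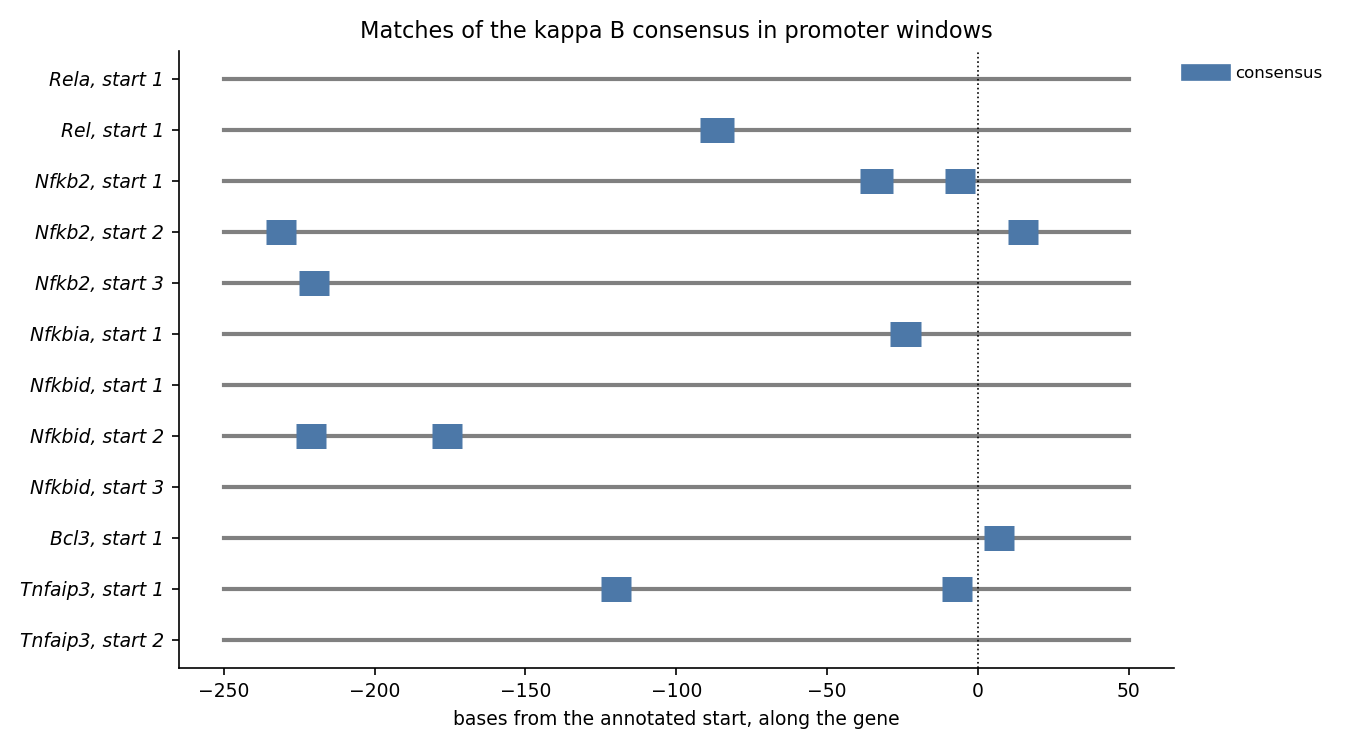
Positions of matches (horizontal axis, bases from each annotated start, along the gene) in the 12 promoter windows of 7 genes, drawn as grey lines, with matches of the kappa B consensus in blue. 8 windows held a match.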

How the data were processed

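ILC2 RNA from 12 mouse lung samples was analysed from FPKM values that the authors deposited. Per the labels, reads were mapped to mm10 with TopHat2 2.1.1 and Bowtie2, and FPKM came from Cuffdiff 2.2.1; versions and library kits are given differently in the study's methods, and strandedness is therefore unsettled here. The IL-33 dose also differs between the labels and the methods, and the label's dose is given.

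Groups and replicate numbers came from the labels. The values were fitted with limma 3.58.1 in R 4.3.3 (lmFit, contrasts, eBayes with a trend) on log2(FPKM + 1), which understates changes of low genes, with the means of 4 groups and 8 residual degrees of freedom. Tested were 11437 genes, those averaging 0.5 FPKM or more and those on a list, and all 10 members reached that average. P-values were adjusted by Benjamini-Hochberg over all genes tested, and called means an adjusted p under 0.05. The contrasts were IL-33 against PBS averaged over genotypes and within each, the genotypes within each treatment, and the interaction. The averaged contrast was tested on simulated data of 11437 genes, 200 of them changed by 1 or 2 log2 units. With a pooled spread per gene, 67 and 149 of the 200 were called, and 2 and 4 unchanged genes. With each group's own spread from 3 libraries, 81 and 158 were called, but 42 of 123 calls (34.2%) and 48 of 206 (23.3%) were of unchanged genes. Where spread differs between groups, false calls can thus exceed the 5% that the threshold stands for, and many changes of 1 log2 unit are missed. Descriptions used Python 3.11.15, numpy 2.4.6, pandas 2.3.3 and matplotlib 3.10.9.

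Named were the 10 members, *Sema6d*, the 2 nearest profiles of each member, and from each list the 2 most abundant genes and up to 4 called in each direction with the largest changes. Heat shock and cell marker genes were also named, some after their values were seen. The members and lists were chosen with earlier results of these data known. No p was adjusted over a list, and no set was tested. One group of pathway genes is not reported here.

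The fit was repeated with array weights, with a replicate block, with only the groups compared, after quantile normalization or median-ratio scaling, with 0.1 in place of 1 added to FPKM, without the filter or with one at 2 FPKM, and leaving out each library. Identical libraries were looked for and 0 pairs found. FPKM hold no read totals, so depth is known only in relative terms: the steps of low values gave a 1.88-fold range between libraries. Nothing states whether a library came from 1 mouse, so p-values measure the spread between these samples, which may be partly technical.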

Additional observations from a re-analysis of the deposited data

How the results depend on the processing

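Leaving out each library in turn, members called ran from 4 to 7 averaged over genotypes (5 with all libraries), from 3 to 6 in WT (4) and 1 to 1 in 6DKO (1), and were 0 to 0 between genotypes and in the interaction. Other alternatives gave 4 to 6, 3 to 5 and 1 to 1. *Nfkbiz* was called in all 3 comparisons throughout.

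With the replicate block (replicates of equal number paired), 4, 4 and 1 members were called, and 0 in the other 3 comparisons. *Rela* was the one lost (averaged, adjusted p 0.0723). Nothing says that equal numbers share a batch: 18 pairs of equal number had correlations of −0.047 to 0.045, with 0 over 0.1, and came from different mice, so the block rests on the labels alone. All genes called were 15 with it and 68 without for the genotypes under PBS, and 1 against 2 for the interaction.

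Quantile normalization moved the median over all genes on the log2 scale by −0.19, −0.20 and −0.16 (averaged, WT, 6DKO) and the share of calls that were higher from 65.2% to 50.6%, 62.7% to 51.6% and 61.7% to 50.0%. The balance of higher and lower genes therefore depends on normalization. Members called were the same 5, 4 and 1. A pseudocount of 0.1 shifted that median by 0.19, 0.13 and 0.13.

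Counts over all genes moved more. Without single libraries they were 693 to 1262 averaged (1027), 212 to 697 in WT (498), 152 to 501 in 6DKO (337), 0 to 3 for the genotypes under IL-33 (1), 20 to 204 under PBS (68) and 0 to 30 for the interaction (2). Array weights gave 215 in 6DKO against 337, 59 against 1 under IL-33, 1 against 68 under PBS and 1 against 2 for the interaction. Under PBS it was 33 with no filter, 36 after quantile normalization and 1 with only the groups compared, against 68. A pseudocount of 0.1 gave 2 against 1 under IL-33 and 5 against 2 for the interaction, and quantile normalization and only the groups compared 0 against 1 under IL-33.

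Leaving out together the 3 PBS libraries with over 10% of mid-level genes at 0 was chosen after seeing the data. It called 1640 genes averaged against 1027, 769 against 498 in WT, 962 against 337 in 6DKO, 446 against 68 for the genotypes under PBS and 172 against 2 for the interaction, with single libraries left in WT PBS. Log2 fold changes whose sign turned were then 0.066 averaged and 0.30 in WT for *Rel*, 0.19 for *Nfkb1*, −0.57 for *Nfkb2*, 0.0501 for *Nfkbiz* and 0.027 for *Bcl3* between genotypes under PBS, and −0.30 for *Nfkb1* in the interaction.

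Other sign changes were all in values that were not called. With array weights *Nfkb2* between genotypes under PBS was −0.074 and *Nfkb1* in the interaction −0.054. Leaving out each library, log2 fold changes ran from −0.058 (without WT PBS 3) to 0.25 for *Nfkb1* in WT and −0.22 (without 6DKO PBS 2) to 0.25 for *Relb* in 6DKO, which was −0.004325 without 6DKO IL-33 3. Under IL-33 genotypes ran from −0.026 (without WT IL-33 1) to 0.083 for *Rela*, which was −0.01 without 6DKO IL-33 2, and −0.039 (without 6DKO IL-33 1) to 0.20 for *Nfkb2*.

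Under PBS genotypes ran from −0.31 to 0.004383 (without WT PBS 1) for *Nfkb1*, −0.35 to 0.000422 (without WT PBS 1) for *Nfkbiz*, −0.60 to 0.015 (without 6DKO PBS 1) for *Bcl3* and −0.13 (without 6DKO PBS 1) to 0.30 for *Nfkb2*, which was −0.08 without WT PBS 1.

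In the interaction *Rel* ran from −0.41 to 0.078 (without 6DKO PBS 1), at 0.06 without WT PBS 3 and 0.03 without WT IL-33 3. *Nfkb1* ran from −0.12 (without WT PBS 1) to 0.19, at −0.000707 without 6DKO PBS 1, −0.05 without 6DKO PBS 2, −0.09 without WT IL-33 1 and −0.04 without 6DKO IL-33 2. *Nfkb2* ran from −0.20 (without WT PBS 3) to 0.23, at −0.15 without 6DKO PBS 2, −0.03 without 6DKO PBS 3, −0.04 without WT IL-33 3 and −0.12 without 6DKO IL-33 1. *Bcl3* ran from −0.45 to 0.17 (without 6DKO PBS 2). The cause was not tested.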
